A study of Mus musculus with 6 samples.

Results

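Axin2 and 9 other genes that the Wnt pathway switches on and that in turn act on the pathway were followed in GC1-Spg, a mouse line made from spermatogonia (the dividing precursors of sperm). The 10 genes are Axin2, Lef1, Tcf7, Nkd1, Nkd2, Sp5, Lgr5, Rnf43, Znrf3 and Dkk1. They were found as all probe sets of the array paired with exactly 1 of these gene symbols, which gave 20 of the 45037 probe sets that are not controls. These 20 stand for 9 of the 10 genes, out of 18193 genes named on the array; no probe set was paired with Tcf7 alone, and it was not analysed here.

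Cells received 100 nM of siRNA against mrhl, a noncoding RNA transcribed from within an intron of the gene Phkb, or 100 nM of a scrambled siRNA, the control. RNA was taken 44 h later from 3 biological replicates of each group, and each replicate was read on its own 1-colour Affymetrix array. Both groups were transfected, and untransfected cells were not analysed here. The replicates carry the numbers 1 to 3 in both groups, and the design text speaks of independent experiments. GC1-Spg is a single line, so the replicates show the spread between experiments with that line. No probe set was paired with mrhl, so its silencing could not be read from the arrays.

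In Wnt signalling, a Wnt ligand engages a Frizzled receptor and the co-receptors Lrp5 and Lrp6, the complex that destroys beta-catenin is held in check, and beta-catenin enters the nucleus and activates genes with the TCF/LEF factors. Many genes switched on this way close a negative loop, and Axin2 is widely used in mice as a reporter of the pathway, among others in undifferentiated spermatogonia. Published work on these cells linked mrhl to Wnt signalling, and the question put to the data here is whether the feedback targets differ in level when mrhl is silenced.

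TCF/LEF factors bind short motifs around the core CTTTG. The 4 forms made of CTTTG followed by A or T at each of the next 2 places were looked for on both strands in the RefSeq promoter windows of assembly GRCm38.p6, which run from 250 bases before to 50 bases after a start site. The forms do not overlap one another on the same strand. Of all 32851 windows, 16.9% held at least 1 match. Windows were found for 8 of the 10 genes, 13 windows in all, and 3 of the 13 held a match, those of Sp5, of Dkk1 and the most downstream of 4 windows of Lef1. The windows of Axin2, Nkd1, Nkd2, Rnf43 and Tcf7 held none of these letters. A match is a description of the sequence and not a site shown to be bound.

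The 250 bases before the start site are given 5′ to 3′ for Dkk1 and Sp5, which held 2 matches each, and for Axin2, the gene whose levels are followed most closely below; capitals mark the motif matches, read on either strand.
Dkk1, GRCm38.p6 chr19:30549497-30549746, minus strand: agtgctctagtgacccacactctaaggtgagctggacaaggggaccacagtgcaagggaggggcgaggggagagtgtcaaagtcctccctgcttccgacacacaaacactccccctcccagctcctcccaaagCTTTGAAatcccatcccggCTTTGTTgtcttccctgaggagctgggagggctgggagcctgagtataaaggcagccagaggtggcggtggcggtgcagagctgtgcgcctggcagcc
Sp5, GRCm38.p6 chr2:70474673-70474922, plus strand: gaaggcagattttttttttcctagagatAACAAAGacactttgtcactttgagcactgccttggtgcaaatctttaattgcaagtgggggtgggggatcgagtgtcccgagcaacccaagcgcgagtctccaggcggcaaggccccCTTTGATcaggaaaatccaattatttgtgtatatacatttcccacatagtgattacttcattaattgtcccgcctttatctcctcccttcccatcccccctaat
Axin2, GRCm38.p6 chr11:108920099-108920348, plus strand: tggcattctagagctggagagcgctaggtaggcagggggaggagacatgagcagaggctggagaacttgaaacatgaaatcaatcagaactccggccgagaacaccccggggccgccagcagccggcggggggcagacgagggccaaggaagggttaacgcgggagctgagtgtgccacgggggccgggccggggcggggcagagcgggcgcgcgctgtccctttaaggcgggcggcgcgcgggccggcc
In Dkk1 the matches begin 117 and 98 bases before the start, both on the gene's own strand. In Sp5 the match nearer to the start begins 104 bases before it. The other is on the opposite strand, and its leftmost base as printed lies 222 bases before the start.

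The deposited values are log2 expression values, 1 per probe set and array, and their medians over an array differed by at most 0.11 between arrays. Probe sets with a mean under 3.62, the 25th percentile, were left out of the test, because a signal there was not shown to be above background; 33778 remained. Of the 20 probe sets of the feedback targets, 14 were tested and 6 were too dim, and the 14 stand for 8 genes. Precision was limited with 3 arrays in each group. A log2 fold change had a standard error of 0.192 at the median when the replicate number was ignored. With that number as a block, the same arrays gave 0.132, so the 0.192 does not reflect the count of arrays alone. Among markers of germ cells, 9 of the 14 genes on the array passed the 3.62 level and Dazl, Ddx4, Dmrt1, Sohlh1 and Thy1 did not. Of the other testis cells' markers, 8 of 8 for Sertoli cells, 3 of 4 for Leydig cells and 8 of 8 for fibroblasts and myoid cells passed it. Of all 18193 genes named on the array, 14885 passed it. After mrhl siRNA the germ cell markers that passed ran from 3.43 (Kit) to 10.2 (Itga6). The Sertoli cell markers ran from 3.67 (Fshr) to 10.8 (Wt1), so passing says little of the level. The median log2 fold changes of these 4 lists were -0.04, 0.0052, -0.07 and 0.22, with 0 members past the test (limma), and their part in the values below was not tested.

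None of the 14 probe sets changed past the test after mrhl siRNA. In limma, 0 of the 14 passed an adjusted p of 0.05, as did 0 of all 33778 (0%), and 1 of the 14, a probe set of Lef1, had an unadjusted p under 0.05, against 3.44% of all probe sets tested. With the replicate number blocked, the count at an unadjusted p was again 1 of 14, against 10.1%. It was 0 with a trended and robust variance model and without both arrays of number 1 or of number 2, and 2 without mrhl siRNA replicate 1 or scrambled siRNA replicate 2. The log2 fold change was positive in 7 and negative in 7, with a median of 0.0098, beside a median of -0.03 over all probe sets tested. Leaving out 1 array moved that median to between -0.14, without mrhl siRNA replicate 1 or scrambled siRNA replicate 3, and 0.097, without mrhl siRNA replicate 3. The groups did not overlap in 2 of the 14, against 8.4% of all, and both were higher after mrhl siRNA (2.58% of all). One of the 2, a probe set of Znrf3, passed the filter only through the mrhl siRNA group, where it is high, so this count supports no direction. In RNA from whole cultures, fewer cells that express a gene and less RNA per cell cannot be told apart.

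**Figure D1:**
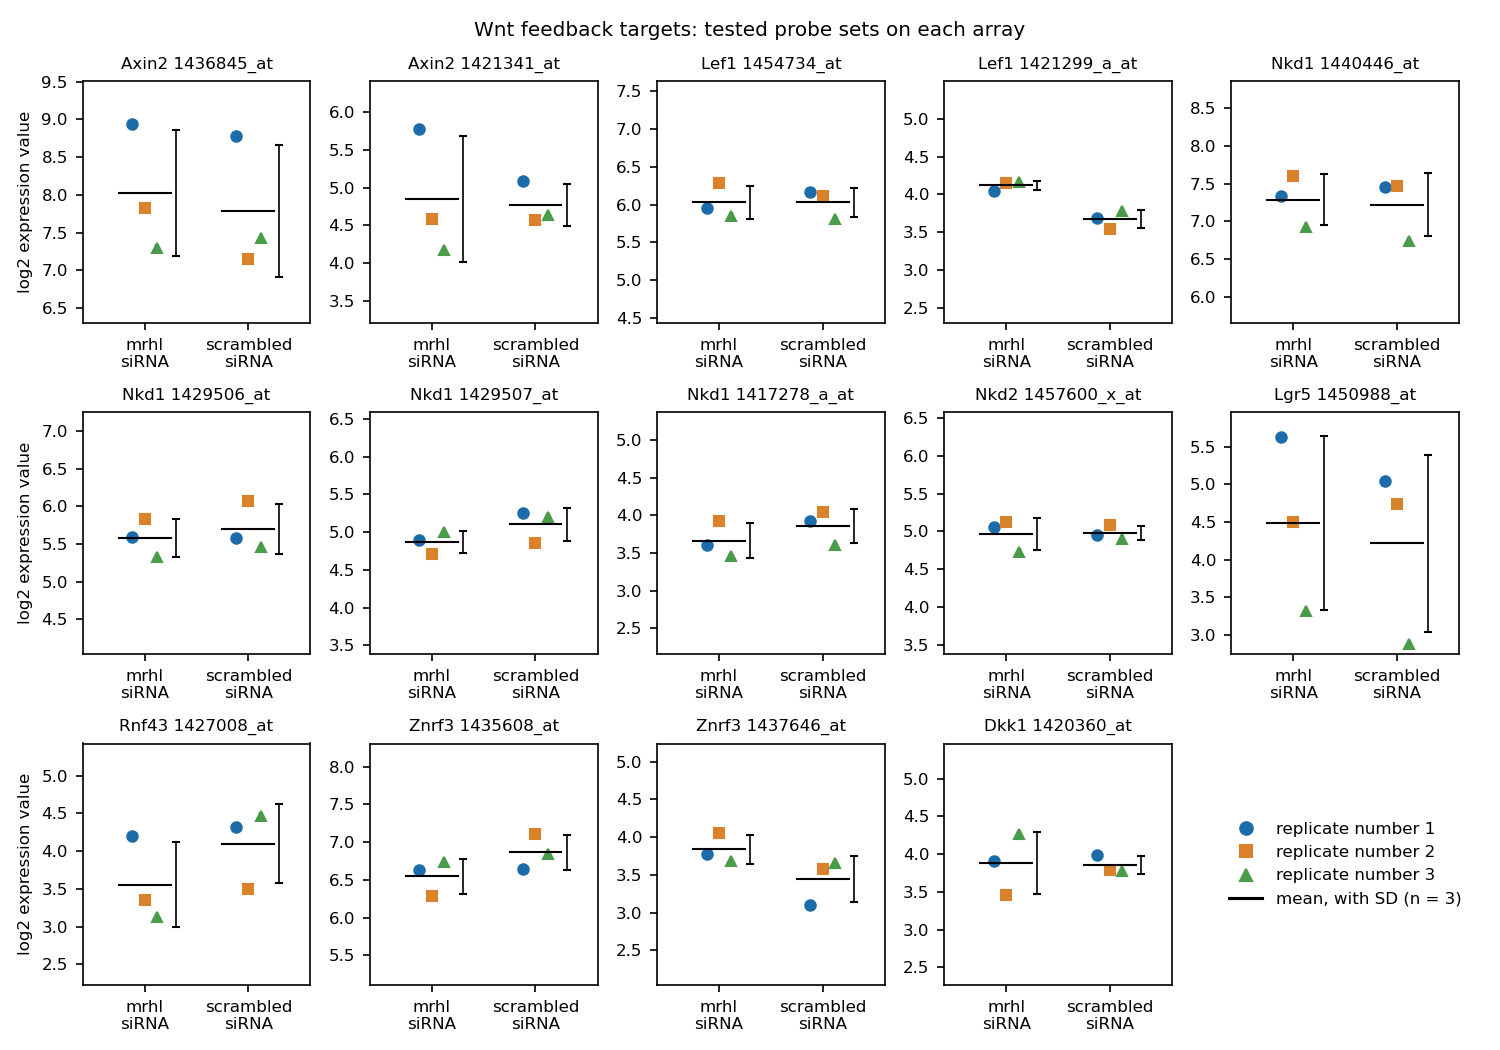
Log2 expression value (y axis, the same span of 3.2 in every panel) of the 14 tested probe sets on each array, mrhl siRNA left and scrambled siRNA right; points are arrays, marked by replicate number, lines are means and bars SD (n = 3). The groups separate in Lef1 1421299_a_at and Znrf3 1437646_at, and in Axin2 and Lgr5 the arrays of number 1 lie highest in both groups.

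Axin2 encodes a scaffold of the complex that destroys beta-catenin, and the means of its replicate numbers spanned 1.50 on the log2 scale in the brighter probe set, against 0.24 between the groups. Its brighter probe set, 1436845_at, stood at 8.93, 7.83 and 7.30 after mrhl siRNA and at 8.78, 7.15 and 7.42 after scrambled siRNA, for numbers 1, 2 and 3. The groups overlap, and number 1 is high in both. The means were 8.02 ± 0.83 after mrhl siRNA and 7.78 ± 0.87 after scrambled siRNA (SD, n = 3). The difference of 0.24 on the log2 scale (SE 0.529, 95% interval from -1.00 to 1.47) did not pass (limma, adjusted p = 0.975). This interval, from the fit without the replicate block, spans both lower and higher Axin2. The interval with the block, given below, is narrower.

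The differences of Axin2 within numbers 1, 2 and 3 were 0.15, 0.68 and -0.12. With the number as a block the standard error fell to 0.181 and the 95% interval was -0.23 to 0.70, and the call stayed as it was (limma, adjusted p = 0.632). Leaving out mrhl siRNA replicate 1 turned the log2 fold change to -0.22, and leaving out scrambled siRNA replicate 2 turned it to -0.08. Without both arrays of number 1, an alternative chosen after seeing the data, it was 0.28. The dimmer Axin2 probe set, 1421341_at, had 5.78, 4.59 and 4.17 after mrhl siRNA against 5.08, 4.58 and 4.64 after scrambled siRNA. Here too number 1 was high in both groups, which overlap, with a log2 fold change of 0.08 (SE 0.395; limma, adjusted p = 0.988).

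Lef1, a TCF/LEF factor that binds DNA and recruits beta-catenin, was read by a pair of probe sets with unequal results. The brighter, 1454734_at, had 5.95, 6.28 and 5.85 after mrhl siRNA against 6.17, 6.12 and 5.81 after scrambled siRNA. These groups overlap throughout, and the log2 fold change was -0.0045 with a 95% interval of -0.42 to 0.41 (limma, adjusted p = 0.999). The dimmer, 1421299_a_at, had 4.05, 4.15 and 4.16 after mrhl siRNA against 3.68, 3.55 and 3.78 after scrambled siRNA. All 3 arrays after mrhl siRNA lie above all 3 controls, and the pairs differed by 0.37, 0.60 and 0.38.

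This dimmer Lef1 probe set had the smallest p among the 14, with a log2 fold change of 0.45 (SE 0.138, 95% interval 0.13 to 0.77), a 1.37-fold difference. It did not pass the adjustment (limma, unadjusted p = 0.0129, adjusted p = 0.965, and 0.487 with the replicate block). Its means, 4.12 ± 0.06 after mrhl siRNA and 3.67 ± 0.12 after scrambled siRNA (SD, n = 3), lie close to 3.62. The ending of its name marks a probe set designed to read several transcripts of the same gene.

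Nkd1 and Nkd2 encode naked cuticle proteins, which bind Dishevelled and dampen the signal. Nkd1 was read by 4 tested probe sets, and the brightest, 1440446_at, had 7.34, 7.60 and 6.93 after mrhl siRNA against 7.45, 7.47 and 6.74 after scrambled siRNA. The groups overlap and number 3 is low in both, and the log2 fold change was 0.07 (SE 0.260; limma, adjusted p = 0.984). Without the block the other Nkd1 probe sets had -0.12 (SE 0.216), -0.23 (SE 0.168) and -0.20 (SE 0.187). Each had overlapping groups and an adjusted p of 0.965 or more in limma. In 1429507_at and 1417278_a_at the value after mrhl siRNA was lower in 3 of 3 pairs. The direction of Nkd1 therefore differs between its brightest probe set and the other 3.

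Of the 4 probe sets of Nkd2 only 1457600_x_at was bright enough to be tested. It had 5.06, 5.12 and 4.72 after mrhl siRNA against 4.96, 5.09 and 4.90 after scrambled siRNA. The groups overlap, and the difference was -0.012 (SE 0.161, interval of 95% from -0.39 to 0.36; limma, adjusted p = 0.997). The ending of its name marks probes that may also match other transcripts, so the reading may not be of Nkd2 alone. The other 3 had means between 2.61 and 2.91, below the level tested.

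At the cell surface, Rnf43 and Znrf3 are paralogous ubiquitin ligases that remove Frizzled receptors, and the R-spondin receptor Lgr5 holds them back. Rnf43, with 1 probe set, had 4.20, 3.35 and 3.12 after mrhl siRNA against 4.32, 3.50 and 4.47 after scrambled siRNA. It was lower in 3 of 3 pairs, by 0.12, 0.15 and 1.35, so number 3 carried most of the difference, and the groups overlap. Its log2 fold change came to -0.54 (SE 0.352, 95% interval -1.36 to 0.29; limma, adjusted p = 0.965), and the mean after mrhl siRNA, 3.56, lies under 3.62. Without both arrays of number 3 the value was -0.13, and with 1 array left out it ran from -0.86, without mrhl siRNA replicate 1, to -0.32, without mrhl siRNA replicate 3.

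The brighter Znrf3 probe set, 1435608_at, had 6.63, 6.29 and 6.73 after mrhl siRNA against 6.65, 7.10 and 6.84 after scrambled siRNA. It was lower in 3 of 3 pairs, but the groups overlap, and the log2 fold change of -0.31 (SE 0.187) did not pass (limma, adjusted p = 0.965). It was -0.18 without mrhl siRNA replicate 2, -0.19 without scrambled siRNA replicate 2 and -0.063 without both. The dimmer, 1437646_at, had 3.77, 4.06 and 3.68 after mrhl siRNA against 3.10, 3.58 and 3.66 after scrambled siRNA. These groups do not overlap, though mrhl siRNA replicate 3 and scrambled siRNA replicate 3 differ by only 0.017, and the sign is opposite, with a log2 fold change of 0.39 (SE 0.199; limma, adjusted p = 0.965). Its control mean of 3.45 lies under the level tested.

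Lgr5 was read by a single tested probe set, 1450988_at, with 5.63, 4.49 and 3.32 after mrhl siRNA against 5.04, 4.74 and 2.88 after scrambled siRNA. In both groups number 1 is highest and number 3 lowest, under 3.62, and the groups overlap. The log2 fold change was 0.26 with the widest standard error of the 14, 0.710 (95% interval -1.40 to 1.92; limma, adjusted p = 0.981). With the replicate block the standard error was 0.192 (limma, adjusted p = 0.620). Leaving out mrhl siRNA replicate 1 or scrambled siRNA replicate 3 turned the value to -0.31 or -0.41. Each of these settings leaves the other array of that number without its pair. Without both arrays of number 1, 2 or 3, alternatives chosen after seeing the data, the value was 0.099, 0.515 and 0.171.

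Dkk1 is a secreted antagonist that binds the Wnt co-receptor Lrp6. Its tested probe set, 1420360_at, had 3.91, 3.45 and 4.27 after mrhl siRNA against 3.99, 3.79 and 3.77 after scrambled siRNA. The arrays after mrhl siRNA lie on both sides of the controls, and the difference was 0.02 (SE 0.222, interval of 95% from -0.49 to 0.54; limma, adjusted p = 0.994). Sp5, a zinc-finger factor of the Sp family induced by Wnt, was too dim to be tested, with 3.17, 2.71 and 2.92 after mrhl siRNA against 2.66, 2.97 and 3.29 after scrambled siRNA. The Sp5 groups overlap, and in a fit of all 45037 probe sets without the filter the log2 fold change was -0.04 (SE 0.222; limma, adjusted p = 0.992). The remaining dim probe sets of Lgr5 and Dkk1 had -0.87 (SE 0.621) and -0.75 (SE 0.396) in that fit (limma, adjusted p = 0.978 for each), with means after mrhl siRNA of 2.37 and 1.71, far under the level tested.

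**Figure D2:**
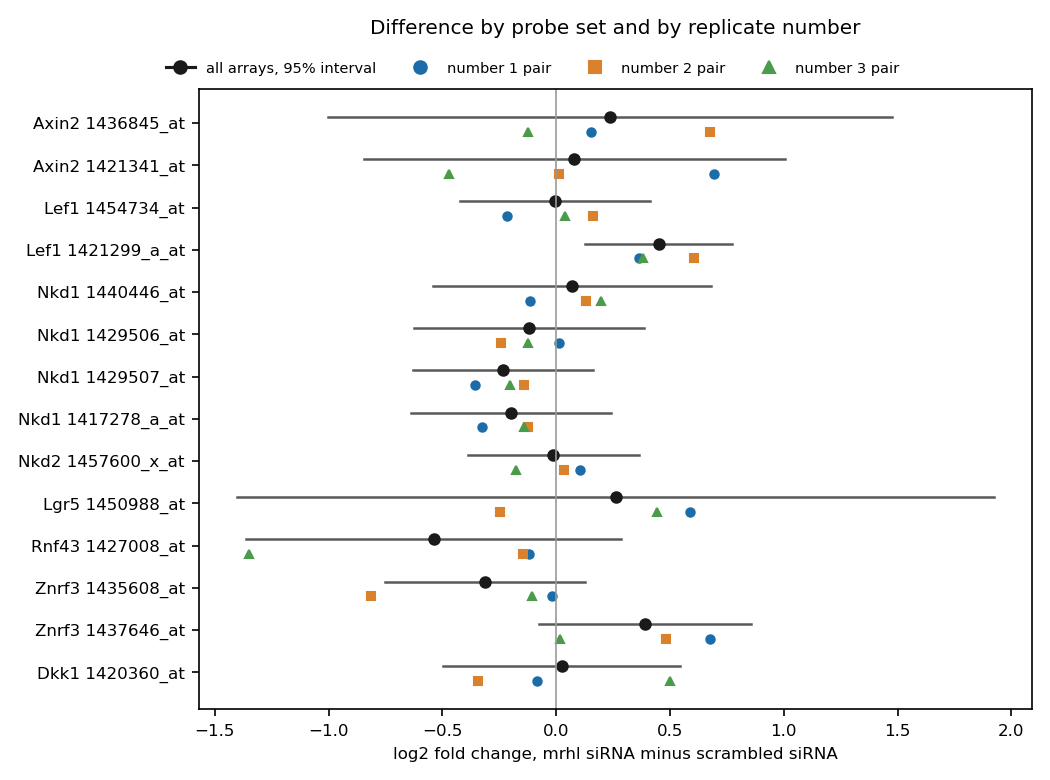
Log2 fold change (x axis, mrhl siRNA minus scrambled siRNA) of each tested probe set; black points with lines are the limma estimate and its 95% interval without a block, and coloured marks are the differences within numbers 1, 2 and 3. The interval leaves 0 only for Lef1 1421299_a_at before adjustment, and the probe sets of Lef1, Nkd1 and Znrf3 do not share a direction.

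Counting pairs, 2 of the 14 probe sets were higher after mrhl siRNA in 3 of 3 pairs, where 14.1% of all probe sets tested were. In the other direction 4 of the 14 were lower in 3 of 3 pairs, against 23.4% of all. The counts of the feedback targets lie near those shares, and they include Znrf3 1437646_at and Rnf43, which passed the filter only through the group where they are high. The count of probe sets without overlap rose to 4 when scrambled siRNA replicate 2 was left out, and a smaller group overlaps less often by construction. It was 3 with quantile normalization or with array medians set to 0, both on all 6 arrays.

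The levels were also set against the replicate number, for which no feedback target passed the main test. The range between the means of the 3 numbers was larger than the difference between the groups in 11 of the 14 probe sets, against 83.9% of all. In limma's F test of the number, with the group in the same fit, 5 of the 14 had an unadjusted p under 0.05, against 23.1% of all. These 5 were both probe sets of Axin2, the tested one of Lgr5, and 1440446_at and 1429506_at of Nkd1. After adjustment 0 of the 14 and 0% of all passed (limma, smallest adjusted p = 0.124). With the filter raised to the median level of 5.23, which left 22519 probe sets, 5.95% of them passed. Under that filter the Axin2 probe set 1436845_at passed (limma, adjusted p = 0.0293), 1 of the 5 of feedback targets still tested.

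The patterns over the numbers were not alike. Axin2 averaged 8.86, 7.49 and 7.36 in numbers 1, 2 and 3 over both groups, and in its dimmer probe set 5.43, 4.58 and 4.40. Lgr5 averaged 5.33, 4.62 and 3.10. Its arrays of number 3, at 3.32 after mrhl siRNA and 2.88 after scrambled siRNA, lay under 3.62, a percentile and not a detection limit. A signal there was not shown to be above background, so how far number 3 falls below the others is uncertain. In Axin2 1436845_at the arrays spanned 1.78 on the log2 scale, or 3.44-fold, and 3.03% of all probe sets tested spanned at least as much. Nkd1 1440446_at was also lowest in number 3 but highest in number 2, with averages of 7.40, 7.53 and 6.84. Both arrays of number 1 lay above the other 4 in 3 of the 14, which were the probe sets of Axin2 and Lgr5, against 13.4% of all. Both arrays of number 3 lay below the other 4 in 5 of the 14, against 8.91%. Those were 1454734_at of Lef1, 1440446_at and 1429506_at of Nkd1, and the tested probe sets of Nkd2 and Lgr5. The sources used here do not say what differed between the experiments beyond their number.

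**Figure D3:**
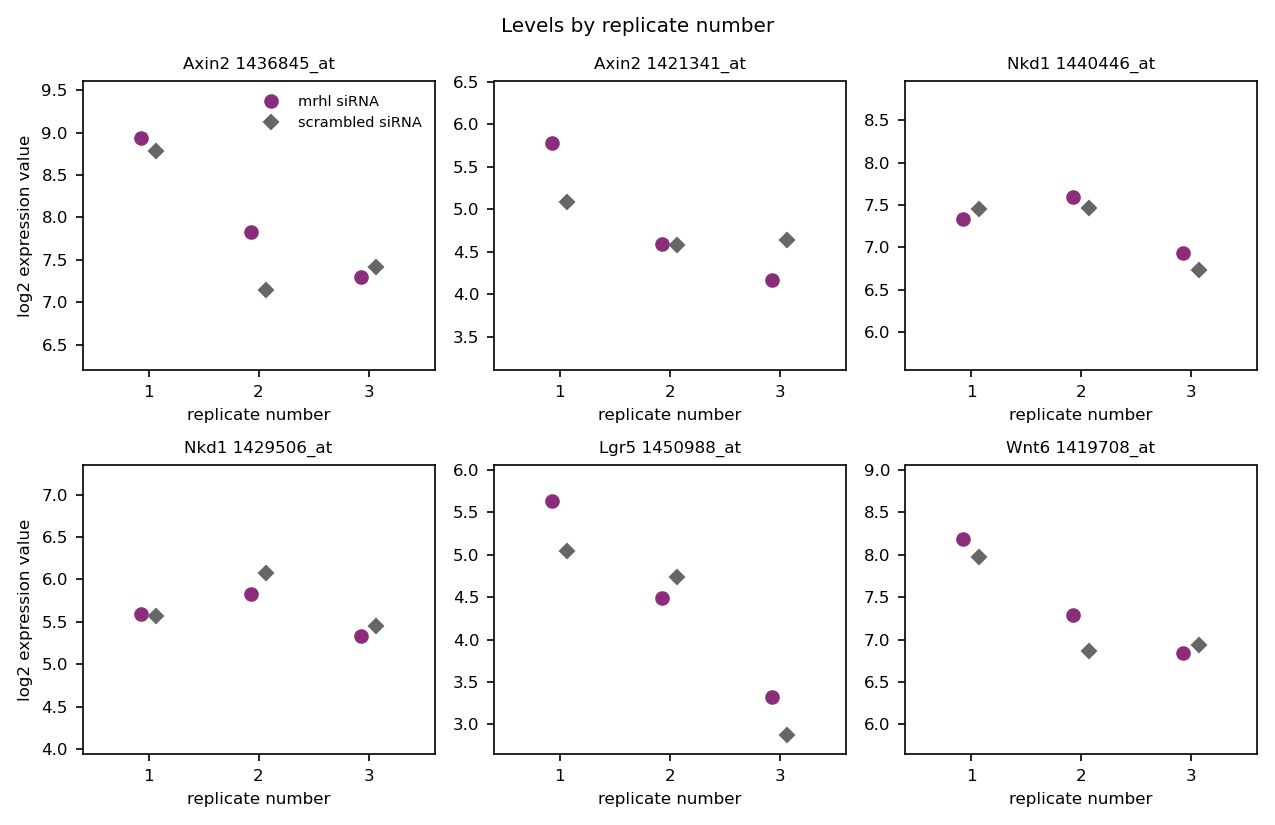
Log2 expression value (y axis) against replicate number (x axis) for the 5 probe sets of feedback targets with the smallest p for number and for Wnt6; circles are mrhl siRNA and diamonds scrambled siRNA, 1 array each, and every panel spans 3.4. Axin2, Lgr5 and Wnt6 are highest in number 1 in both groups, and Nkd1 is lowest in number 3.

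The genes with the pattern most like that of Axin2 1436845_at were taken by Pearson's r over the 6 arrays, among 4625 named probe sets that spanned at least 1 on the log2 scale. The highest was Wnt6, which encodes a Wnt ligand, with r = 0.995 (n = 6 arrays). It had 8.19, 7.29 and 6.84 after mrhl siRNA against 7.97, 6.87 and 6.94 after scrambled siRNA, so it too was high in number 1 in both groups. Next came Vps52 of vesicle tethering, Pdia4, a protein disulfide isomerase of the endoplasmic reticulum, Obsl1, a cytoskeletal adaptor, Pou3f1, a POU transcription factor, and P4ha3, a prolyl hydroxylase subunit, with r between 0.984 and 0.986. Their log2 fold changes lay between 0.0034 and 0.25, and all had an adjusted p of 0.965 or more in limma. These values of r describe 6 arrays that share 3 experiments and are given with no test. Among the feedback targets themselves, r with this Axin2 probe set was 0.88 for the other Axin2 probe set and 0.73 for Lgr5, and it lay between -0.47 and 0.55 for the rest.

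The rest of the pathway did not change past the test either. Genes are counted here through their brightest tested probe set, and 0 of the 116 genes in the 4 lists below passed in limma. Over all 14885 genes tested the median log2 fold change was -0.04, 42.1% had a positive value, 2.84% had an unadjusted p under 0.05, and the groups did not overlap in 8.44%. With the replicate block the share at an unadjusted p under 0.05 was 9.03%, 3.14% higher and 5.89% lower, and again 0 of the 116 passed (limma). Those under 0.05 then numbered 17 of the 116, and the brightest probe sets of the feedback targets 0 of 8. Genes named below for the block alone were chosen after their values were seen.

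Among other targets of TCF factors, 44 of 51 genes on the array were tested, 25 positive and 19 negative, with a median of 0.017. At an unadjusted p under 0.05 stood 2 higher and 0 lower, and with the replicate block 2 higher and 2 lower, Abcb1a and Ptgs2. Tbx6, a T-box factor of the early mesoderm, had 4.38 ± 0.14 after mrhl siRNA and 3.66 ± 0.33 after scrambled siRNA (SD, n = 3), without overlap. Its log2 fold change was 0.72 (SE 0.196; limma, adjusted p = 0.965). Its control mean lies at the edge of the level tested. Fgf18, a growth factor, had 0.76 (SE 0.314) with overlapping groups. On the negative side Abcb1a, a drug efflux pump, had -0.29 (SE 0.140) and -0.63 in its other probe set, and Sp8, a relative of Sp5, had -0.43 (SE 0.264). The cell cycle genes Myc and Ccnd1 had 95% intervals of -0.54 to 0.29 and -0.76 to 0.31.

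Of the other secreted and intracellular inhibitors of the pathway, 14 of 21 were tested, 9 positive and 5 negative, with a median of 0.03. At an unadjusted p under 0.05 stood 1, and 3 with the replicate block, which were Cxxc4, Frzb and Apcdd1. Cxxc4, whose product binds Dishevelled, had 4.56 ± 0.21 after mrhl siRNA and 4.08 ± 0.17 after scrambled siRNA (SD, n = 3), while its other probe set had a log2 fold change of -0.57. Frzb, a secreted Frizzled-related protein, had 0.75 (SE 0.335) and -0.013 in its other probe set. The related Sfrp1 had -0.25 (SE 0.141) without overlap, but its 3 other tested probe sets were positive, up to 0.80. Apcdd1, an inhibitor at the membrane, was negative in all 5 of its tested probe sets, with -0.43 (SE 0.377) in the brightest (limma, adjusted p = 0.965).

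At the receptor level, 23 of 24 genes were tested, 10 positive and 13 negative, with a median of -0.04. An unadjusted p under 0.05 was found for Kremen1, a Dkk1 receptor, and for Fzd6, a Frizzled. With the replicate block these were 7 of the 23, which were Kremen1, Fzd2, Fzd9 and Lrp5 on the positive side and Fzd5, Fzd6 and Fzd10 on the negative (limma, adjusted p between 0.487 and 0.489). Kremen1 had 7.46 ± 0.14 after mrhl siRNA against 7.09 ± 0.13 after scrambled siRNA, and Fzd6 had 7.84 ± 0.09 against 8.22 ± 0.20 (SD, n = 3), both without overlap. All 3 tested probe sets of Kremen1 were positive and all 3 of Fzd6 negative, and neither gene passed (limma, adjusted p = 0.965). Fzd2 had 0.44 (SE 0.224) and was positive in all 3 of its probe sets, and the co-receptor Lrp6 had -0.25 (SE 0.158) and 0.15 in its other probe set. The co-receptor Lrp5, read by 1 probe set, had 1.04 (SE 0.543; limma, adjusted p = 0.965). Its means were 5.06 ± 0.87 after mrhl siRNA and 4.01 ± 0.88 after scrambled siRNA (SD, n = 3), and the groups overlap.

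Inside the cell, 35 of 36 transducers were tested, 20 positive and 15 negative, with a median of 0.02. At an unadjusted p under 0.05 stood 0, and 3 with the replicate block, which were Tcf7l2, a TCF factor, with 0.54 (limma, adjusted p = 0.487), Apc2 and Bcl9l. Apc2, a relative of Apc, had 0.37 (SE 0.175) without overlap, while its other probe sets lay between -0.15 and 0.23. The beta-catenin cofactor Bcl9l had 0.35 (SE 0.172), and 0.26 and -0.089 in its other probe sets. Apc, a scaffold of the destruction complex, had -0.25 (SE 0.154), and Cdc73, of the Paf1 complex that works with beta-catenin in transcription, had -0.17 (SE 0.154). Ctnnb1, the gene of beta-catenin itself, had 12.24, 12.39 and 12.45 after mrhl siRNA against 12.41, 12.59 and 12.52 after scrambled siRNA. Ctnnb1 was lower in each pair by little, the groups overlap, and the 95% interval of its log2 fold change was -0.47 to 0.18. These are transcript levels, and protein or its place in the cell was not measured.

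**Figure D4:**
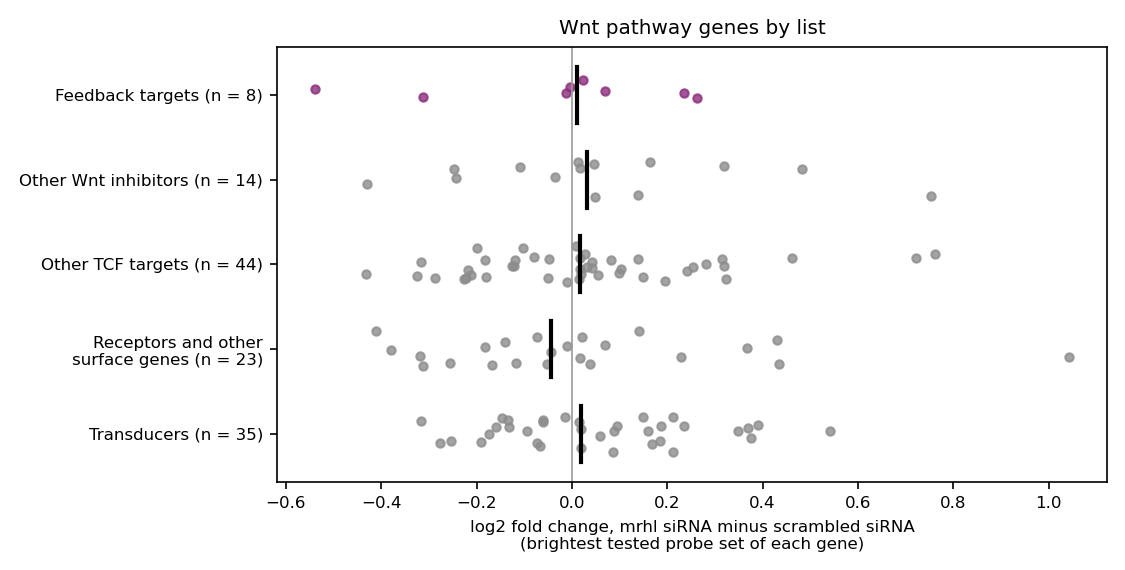
Log2 fold change (x axis, mrhl siRNA minus scrambled siRNA) of each gene's brightest tested probe set, by list (rows, with the number of genes tested); points are genes, spread vertically at random for sight, and black bars are list medians. The medians lie between -0.04 and 0.03, and the feedback targets spread from -0.54 to 0.26.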

How the data were processed

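RNA from 6 cultures was measured, 3 after mrhl siRNA and 3 after scrambled siRNA, grouped and numbered by the sample titles. The deposited values are log2 expression values, read as log2 from their range. The submitters' processing notes name GCOS and PLIER, without versions; how the authors corrected background and normalized the arrays is not given in the sources used here. No further normalization was applied.

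Of 45101 rows, 64 controls were left out. Per the probe table, 34945 probe sets had 1 symbol, 932 several and 9160 none, and 34741 of the 34945 had a gene ID in the table of assembly GRCm38.p6, with 0 symbols updated. Probe sets with a mean under the 25th percentile were left out. Groups were compared with limma 3.58.1 (lmFit, eBayes) in R 4.3.3, with Benjamini-Hochberg adjustment over 33778 probe sets and a threshold of 0.05; a level given for a gene outside the 10 targets is that of its brightest tested probe set. The fit was tested on simulated data.

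Deviations from group means correlated at 0.534, 0.201 and 0.567 between arrays of equal number and at -0.518 to 0.0684 between others, so the numbers were read as pairs, and limma was also run with the number as a block.

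The members and lists were chosen with earlier results of these data known. The rule for other named genes took the 2 smallest p on each side of each list, Ctnnb1, Myc and Ccnd1, and the 6 genes most like Axin2. Figures were drawn with matplotlib 3.10.9. Alternatives were other normalizations, filters, variance models, array weights, the block, means over probe sets and arrays left out.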

Additional observations from a re-analysis of the deposited data

How the results depend on the processing

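In the comparison of mrhl siRNA with scrambled siRNA, no feedback target passed in any setting run, and the count over all probe sets stayed at 0 (limma). The replicate block, which cannot move a fold change in this balanced design, changed no call at the adjusted threshold: Axin2 had 0.24 with an SE of 0.181 (adjusted p = 0.632). The median of the targets, 0.0098, ran from -0.14 to 0.097 with 1 array left out and from -0.01 to 0.06 in the other settings. Values near 0 changed sign, and so did those of Axin2, Lgr5 and Znrf3, which were further from 0 at 0.24, 0.26 and -0.31. Rnf43 stayed negative in every setting. Lef1 was 0.019 after quantile normalization, 0.0067 with array medians set to 0, 0.078 with array weights, 0.22 as the mean of its probe sets and 0.10 without number 1. Nkd2 was 0.012 after quantile normalization, 0.043 with array weights and 0.070 without number 3. Dkk1 was -0.021 with array weights and -0.21 without number 3. As means over probe sets, Nkd1 was -0.12 and Znrf3 0.039. With each array left out in turn, Axin2 ran from -0.22 to 0.73, Lgr5 from -0.41 to 0.84, Nkd1 from -0.17 to 0.25, Lef1 from -0.13 to 0.083, Nkd2 from -0.089 to 0.11, Dkk1 from -0.17 to 0.24, Rnf43 from -0.86 to -0.32 and Znrf3 from -0.42 to -0.18. Without number 3 Rnf43 was -0.13, and without number 2 Znrf3 was -0.063. Targets without overlap, 2 of 14, numbered 0 with the filter at the median level, where 5 are left, 1 as gene means, 3 with quantile normalization or array medians set to 0, 3 to 4 with 1 array left out, and 4, 5 and 4 without number 1, 2 or 3; where arrays are left out, fewer overlap by construction. Targets at an unadjusted p under 0.05, 1 of 14, numbered 0 with trended and robust variance, with the filter at the median level, as gene means and without number 1 or 2, and 2 without mrhl siRNA replicate 1 or scrambled siRNA replicate 2. Leaving out a number was chosen after seeing the data. The F test of the number passed 1339 probe sets with the filter at the median level, against 0; the cause was not tested.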
